A study of Mus musculus with 20 samples.

Results

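The microRNAs (miRNAs) described here are those best known from blood cells: both arms of miR-223, both arms of miR-142, miR-155-5p, miR-150-5p and miR-342-3p. They were chosen by name, as 8 of the 1545 entries of the deposited table, and all 8 passed the filter on low values that left 360 entries for testing. The eighth entry, miR-142b, held the same value as miR-142a-3p in 20 of 20 libraries, so 7 distinct members are counted below. The labels name the tissue as heart and do not say how much of it was taken; small RNA was sequenced from hearts of C57BL/6J mice.

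The libraries came from 7 hearts after myocardial infarction combined with CIH (MI+CIH), 4 hearts after myocardial infarction alone (MI), 4 hearts after CIH alone and 5 sham hearts. The labels give CIH as letters only. They are taken to mean chronic intermittent hypoxia, in which animals breathe oxygen-poor air in brief cycles as a model of sleep apnoea. The labels name no genotype, age, sex, duration of CIH, time after infarction or region of the heart. They do not say whether each library came from a separate animal, so the p-values measure the spread between these libraries.

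A mature miRNA guides Argonaute proteins to messenger RNAs that pair with its seed, bases 2 to 8, and lowers their output. Blood cell lineages carry characteristic miRNAs: miR-223 is made by neutrophils, monocytes and macrophages, miR-150 and miR-342 are abundant in lymphocytes, miR-142 is found across blood lineages, and miR-155 is induced when lymphocytes and macrophages are activated. Leukocytes enter the infarcted heart in waves, with neutrophils and monocytes early and lymphocytes alongside repair. In whole tissue, a change in the number of cells of a type and a change in the RNA made per cell cannot be told apart.

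The mature sequences are shown because the members are read out as these short RNAs, and because they show how miR-142b relates to miR-142a-3p. They are RefSeq sequences of build GRCm38.p6, written 5′ to 3′ with the seed in capitals, and were found for 7 of the 8 members.
miR-223-3p: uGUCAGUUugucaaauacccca
miR-223-5p: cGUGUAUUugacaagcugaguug
miR-142a-3p: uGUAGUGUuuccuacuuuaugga
miR-142a-5p: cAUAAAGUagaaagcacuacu
miR-142b: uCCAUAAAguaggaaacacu
miR-155-5p: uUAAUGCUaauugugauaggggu
miR-342-3p: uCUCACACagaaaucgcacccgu
The 7 sequences had 7 distinct seeds. The reverse complement of miR-142b covers bases 4 to 23 of miR-142a-3p, on the opposite strand of the same place.

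In the GENCODE annotation of GRCm38, Mir223 lies on the plus strand of chromosome X, from 96242817 to 96242926, in an exon of the noncoding gene F630028O10Rik. Mir142 lies on the plus strand of chromosome 11, from 87756864 to 87756927, in an intron of Mir142hg, and Mir142b overlaps it on the minus strand. Mir155 lies in an exon of Mir155hg on chromosome 16, from 84714140 to 84714204, and Mir342 in an intron of Evl, which encodes an actin regulator, on chromosome 12, from 108658620 to 108658718. Mir150 lies on chromosome 7, from 45121757 to 45121821, in no other gene. The Mir142 hairpin is shown because its arms were spread differently over the hearts, with the 5p arm first and the 3p arm second in capitals.
Mir142 hairpin: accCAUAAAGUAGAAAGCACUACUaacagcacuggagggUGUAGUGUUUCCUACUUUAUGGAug

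Levels are given as RPM, the share that a miRNA takes of the reads summed over all entries of a library, scaled to 1000000. In 13 pairs of entries the values repeated each other within 5%, miR-1a-3p and miR-1b-5p among them. Reads of such pairs appear to enter the sum for both entries. Counted in this way, libraries held 1991323 to 18138415 reads, so that 1 read was worth 0.0551 to 0.502 RPM. The miRNAs of heart muscle (miR-1a-3p, miR-133a-3p, miR-208a-3p and miR-499-5p) summed to at least 88403 RPM in every library. Marker miRNAs of red cells, endothelium, fibroblasts and smooth muscle were also detected, with none of them at 0 in all libraries.

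Clustering on the tested entries, with the members and their other arms left out, gave 3 library sets, which no label names. Of the infarcted hearts, MI+CIH 1 and MI 2 joined the 4 CIH and 5 sham hearts in set A (11 libraries). MI+CIH 2 to 5 formed set B together with MI 1 and MI 3. MI+CIH 6, MI+CIH 7 and MI 4 formed set C. The ratios of the arms of 72 other hairpins put 20 of 20 libraries in the same set. Pearson's r between libraries was 0.908 to 0.9945 within sets and 0.719 to 0.934 between sets. Libraries held 1991323 to 9175110 reads in set B, 12177044 to 18138415 in set C and 5700599 to 18014081 in set A, and the part of depth in the results was not tested. Since sets B and C held infarcted hearts only, the set and infarction cannot be told apart in most of the comparisons below, and each is given with and without a term for the set. MI 2 also stood apart from the other MI hearts, with 363 RPM for the summed fibroblast miRNAs (miR-199a-3p, miR-199a-5p and miR-214-3p), the lowest of its group, against up to 3935 RPM. Sham 1 had 1844 RPM for the same sum, the highest of the sham hearts. Whether the labels of these 2 hearts were exchanged was not tested; the MI and sham values and the fits with the set term take the labels as given, and calls without both hearts are given for MI+CIH against sham and for MI against sham.

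**Figure D1:**
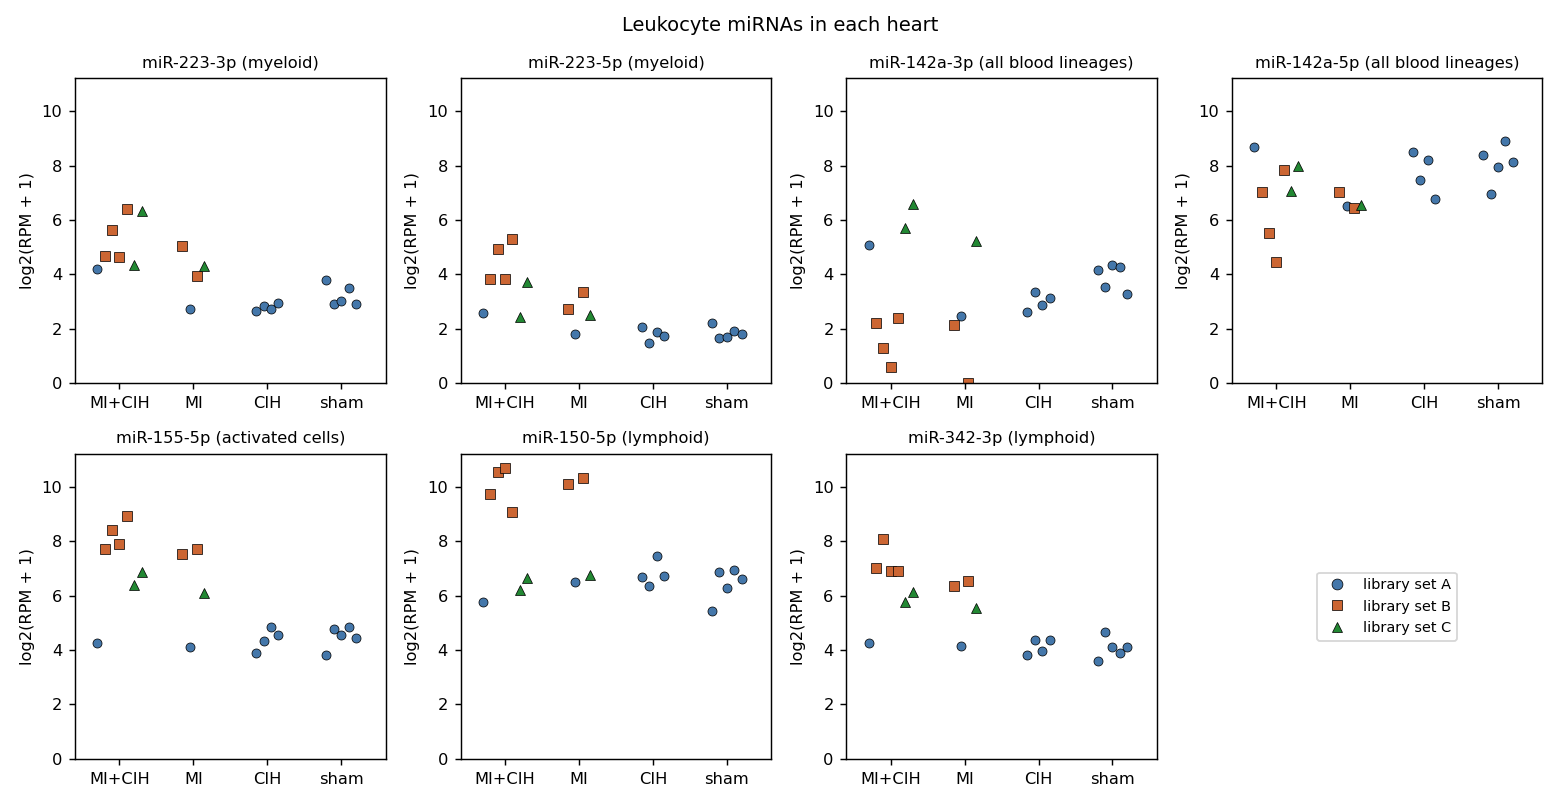
Each point is 1 heart, with log2(RPM + 1) on the vertical axis and the 4 groups on the horizontal axis; colour and shape give the library set. The CIH and sham hearts lie close together for miR-155-5p (13.1 to 28.1 RPM), while infarcted hearts spread by set, and miR-142a-3p is lowest in set B and highest in set C.

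The myeloid member miR-223-3p, which restrains neutrophil production and activation in mice, was highest in MI+CIH hearts. It had 17.5, 24.3, 48.7, 24.1, 84.3, 19.1 and 79.6 RPM in MI+CIH hearts 1 to 7, and 31.9, 5.66, 14.5 and 18.8 RPM in MI hearts 1 to 4. It had 5.31, 6.09, 5.70 and 6.75 RPM in the CIH hearts, and 12.9, 6.48, 7.14, 10.2 and 6.59 RPM in the sham hearts. All 7 MI+CIH hearts lay above all CIH and all sham hearts, and the MI+CIH and MI hearts overlapped. The order of the means was MI+CIH (42.5 ± 28.9 RPM, SD, n = 7), MI (17.7 ± 10.9, n = 4), sham (8.65 ± 2.80, n = 5) and CIH (5.96 ± 0.614, n = 4). Each of the neighbours in that order overlapped in range. Without sham 1 the sham mean was 7.59 RPM, and without MI 2 the MI mean was 21.7 RPM.

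The other arm, miR-223-5p, was lower in every heart and was again highest in MI+CIH hearts by mean. It had 4.94, 13.2, 29.7, 13.1, 37.9, 4.46 and 12.1 RPM in MI+CIH hearts 1 to 7, and 5.67, 2.49, 9.15 and 4.69 RPM in MI hearts 1 to 4. CIH hearts held 1.75 to 3.21 RPM and sham hearts 2.16 to 3.65 RPM, on 16 to 40 reads each. All 7 MI+CIH hearts again lay above the CIH and sham hearts, and MI 2 lay within the range of both the CIH and the sham hearts.

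The lymphoid member miR-150-5p, a regulator of lymphocyte maturation, was split by library set. It had 54.0, 841, 1478, 1648, 543, 73.2 and 98.7 RPM in MI+CIH hearts 1 to 7, and 1089, 88.8, 1291 and 108 RPM in MI hearts 1 to 4. The CIH hearts had 103, 81.0, 173 and 104 RPM and the sham hearts 42.2, 116, 77.1, 121 and 97.1 RPM. The 6 hearts of set B held 543 to 1648 RPM. The 3 infarcted hearts of set C held 73.2 to 108 RPM, within the 42.2 to 173 RPM of set A. The means were 677 ± 673 RPM in MI+CIH, 644 ± 636 RPM in MI, 115 ± 40.0 RPM in CIH and 90.7 ± 32.1 RPM in sham hearts, and all neighbours in that order overlapped.

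The other lymphoid member, miR-342-3p, carried in an intron of Evl, was high in both sets of infarcted hearts. It had 18.1, 129, 269, 119, 118, 53.4 and 68.6 RPM in MI+CIH hearts 1 to 7, and 80.0, 16.6, 92.1 and 45.6 RPM in MI hearts 1 to 4. The CIH hearts had 13.3 to 19.7 RPM and the sham hearts 11.05 to 24.3 RPM. MI+CIH 1 and MI 2, the infarcted hearts of set A, lay inside the range of the CIH and sham hearts, and the other infarcted hearts lay above it.

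The activation-linked member miR-155-5p, which promotes inflammatory signalling in macrophages and lymphocytes, showed the same split. It had 18.3, 209, 343, 236, 480, 83.4 and 114 RPM in MI+CIH hearts 1 to 7, and 182, 16.4, 208 and 67.6 RPM in MI hearts 1 to 4. The CIH hearts had 13.8, 19.4, 28.1 and 22.6 RPM, and the sham hearts 13.1, 26.0, 22.8, 28.1 and 20.8 RPM. MI+CIH 1 and MI 2 lay with the CIH and sham hearts, set C held 67.6 to 114 RPM, and set B held 182 to 480 RPM with no overlap between the sets. The means were 212 ± 160 RPM in MI+CIH, 119 ± 91.5 RPM in MI, 21.0 ± 5.99 RPM in CIH and 22.2 ± 5.78 RPM in sham hearts.

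The 2 arms of miR-142, a hairpin needed for several blood lineages in mice, were spread differently over the hearts. The 3p arm had 32.6, 3.67, 1.46, 0.502, 4.25, 51.3 and 96.0 RPM in MI+CIH hearts 1 to 7, and 3.38, 4.49, 0 and 36.8 RPM in MI hearts 1 to 4. MI 3 had 0 reads, with an exact Poisson 95% interval of 0 to 1.09 RPM, and its limit of 3 reads is 0.886 RPM. MI+CIH 4 had 1 read (exact Poisson 95% interval 0.0127 to 2.80 RPM). Both intervals cover counting error only. The CIH hearts had 5.17, 9.26, 6.28 and 7.76 RPM and the sham hearts 16.9, 10.7, 19.1, 18.1 and 8.79 RPM. Set B, at 0 to 4.25 RPM, lay below all hearts of set A, at 4.49 to 32.6 RPM, and set C, at 36.8 to 96.0 RPM, lay above them. At each of these borders the intervals of the nearest hearts overlapped.

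The 5p arm, miR-142a-5p, was the more abundant arm in every heart. It had 405, 130, 44.4, 21.1, 224, 134 and 251 RPM in MI+CIH hearts 1 to 7, and 128, 91.4, 85.6 and 92.8 RPM in MI hearts 1 to 4. The CIH hearts had 363, 174, 291 and 107 RPM and the sham hearts 336, 122, 245, 475 and 276 RPM. The MI+CIH hearts overlapped every other group, and of the MI hearts only MI 1 reached the range of the CIH and sham hearts. The means were 173 ± 132 RPM in MI+CIH, 99.4 ± 19.1 RPM in MI, 234 ± 115 RPM in CIH and 291 ± 129 RPM in sham hearts.

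**Figure D2:**
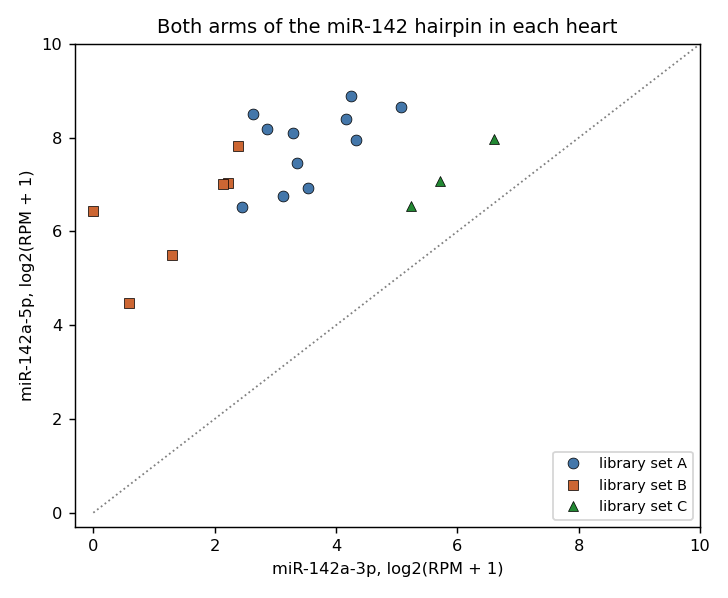
Each point is 1 heart, with miR-142a-3p on the horizontal and miR-142a-5p on the vertical axis, both as log2(RPM + 1); the dotted line marks equal values. All 20 hearts lie above the line, and the 3 hearts of set C lie closest to it, with 2.52 to 2.62 reads of the 5p arm per read of the 3p arm.

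The 5p to 3p read ratio of miR-142 was 30.3 to at least 96.7 in set B, 2.52 to 2.62 in set C and 11.4 to 70.2 in set A, with the bound taken from MI 3 at its limit of 3 reads. The 3p arm had 3 reads in MI+CIH 3 and 1 read in MI+CIH 4, so their ratios of 30.3 and 42 are imprecise. The ratio of set C overlapped no heart of set A. Of 72 other hairpins with both arms measured, 29 (40.3%) also had non-overlapping arm ratios between sets C and A, and 26 (36.1%) between sets B and A. Clustering on these same arm ratios gave the same sets, so these shares are no independent background. For miR-223, the 3p to 5p read ratio was 1.58 to 5.63 in set B, 4.01 to 6.59 in set C and 1.65 to 3.62 in set A.

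Between sets, 4 of the 7 members lay higher in every heart of set B than in every heart of set A (miR-223-5p, miR-155-5p, miR-150-5p and miR-342-3p), against 53.3% of the 360 tested entries. Only miR-142a-3p among the members lay lower there without overlap, against 3.06% of the tested entries. The intervals of its highest heart in set B (2.75 to 6.27 RPM) and its lowest in set A (3.46 to 5.72 RPM) overlapped. For miR-223-5p the lowest heart of set B (4.23 to 7.43 RPM) overlapped the highest of set A (3.97 to 6.08 RPM) likewise. Between sets C and A, 4 members lay higher without overlap (miR-223-3p, miR-142a-3p, miR-155-5p and miR-342-3p), against 35.6%. For miR-223-3p the intervals of MI 4 (16.9 to 20.9 RPM) and MI+CIH 1 (15.6 to 19.5 RPM) overlapped, as they did for miR-142a-3p. The sets were found by clustering these tested entries without the members, so the shares in this paragraph are no independent background.

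What CIH adds after infarction is the question named by the series title, and it was addressed by MI+CIH against MI. Both arms of miR-223 averaged higher in MI+CIH hearts, but no member passed the test. With limma on log2(RPM + 1), 0 of 7 members and 0% of the 360 tested entries passed an adjusted p of 0.05 (Benjamini-Hochberg over all tested). At an unadjusted p of 0.05 limma passed 2 members, both arms of miR-223, and 4.72% of the tested entries, and edgeR and DESeq2 on the recovered reads called 0 members after adjustment. The log2 difference of miR-223-3p was 1.17 (SE 0.50, 95% interval 0.12 to 2.21) and that of miR-223-5p was 1.20 (SE 0.49), each at an adjusted p of 0.834 by limma. The median over all tested entries in this comparison was 0.41.

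The other members had wide errors in this comparison. The log2 difference in MI+CIH against MI was -0.04 for miR-150-5p (SE 0.92, adjusted p = 0.986, limma) and 0.79 for miR-342-3p (SE 0.58, adjusted p = 0.895, limma). It was 0.85 for miR-155-5p (SE 0.73) and 0.95 for miR-142a-3p (SE 0.98), each with an adjusted p of 0.895 by limma. The sign was positive for 6 of 7 members and for 289 of the 360 tested entries.

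Within library sets, MI+CIH hearts could be set beside MI hearts of the same set, 2 in set B and 1 each in sets C and A. All 7 MI+CIH hearts exceeded every MI heart of their own set for miR-155-5p and for miR-342-3p, as did 16 of the 360 tested entries (4.44%). For miR-223-5p 6 of the 7 did, while 16.1% of the tested entries had 6 or more. For miR-223-3p, miR-142a-3p and miR-142a-5p 5 of the 7 did, while 40.3% had 5 or more. For miR-150-5p only 2 of the 7 lay above and 5 lay below every MI heart of their set. Under other scalings, an alternative chosen after seeing the data, the count for miR-155-5p was 5 of 7 both by median-of-ratios scaling (16.7% of tested entries had as many or more) and by TMM scaling (17.5%). For miR-342-3p it was 4 by median-of-ratios scaling (34.2%) and 6 by TMM scaling (6.39%). For miR-223-5p it was 6 under both (6.11% by median-of-ratios and 6.39% by TMM scaling).

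With a term for the library set in limma, 0 of 7 members passed in MI+CIH against MI, against 0.556% of the tested entries. At an unadjusted p of 0.05 it passed 3 members and 13.3% of the tested entries. The log2 difference was 1.07 for miR-223-5p (unadjusted p = 0.00377, adjusted p = 0.154), 1.02 for miR-223-3p (adjusted p = 0.262) and 1.07 for miR-142a-3p (adjusted p = 0.263). It was -0.34 for miR-150-5p (adjusted p = 0.623). In set B miR-223-3p averaged 45.4 RPM in 4 MI+CIH hearts and 23.2 RPM in 2 MI hearts, and miR-150-5p averaged 1128 RPM in these MI+CIH hearts and 1190 RPM in these MI hearts.

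MI+CIH against sham gave calls for the myeloid, activation-linked and 1 lymphoid member. With limma 4 of 7 members rose, while 52.2% of the 360 tested entries rose, so the share of members was near the background. The log2 change was 2.72 for miR-155-5p (SE 0.68, adjusted p = 0.00341), 2.36 for miR-342-3p (SE 0.54, adjusted p = 0.00257), 1.95 for miR-223-3p (SE 0.47, adjusted p = 0.00299) and 1.94 for miR-223-5p (SE 0.46, adjusted p = 0.00292), all by limma. All 7 MI+CIH hearts lay above all 5 sham hearts for both arms of miR-223, as did 13.6% of the tested entries. The 5p arm passed the filter only through infarcted hearts, so its rise and separation here are no independent support. For miR-155-5p and miR-342-3p 6 of the 7 MI+CIH hearts lay above all sham hearts, MI+CIH 1 being the exception. Without sham 1 and MI 2 the 4 members passed as well, while 55.3% of tested entries did. On the recovered reads DESeq2 called 4 members, miR-155-5p, miR-342-3p and miR-223-5p higher and miR-142a-5p lower (40.6% of tested entries called), and edgeR called 1, miR-155-5p (23.6%).

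The remaining members did not pass in MI+CIH against sham. The log2 difference was 1.95 for miR-150-5p (SE 0.86, adjusted p = 0.0579, limma), -1.12 for miR-142a-5p (SE 0.59, adjusted p = 0.108, limma) and -0.50 for miR-142a-3p (SE 0.91, adjusted p = 0.655, limma). The median over all tested entries was 1.39, and RPM is a share of a library, so changes were also set against that median. Relative to that median, miR-155-5p was at 1.32, miR-342-3p at 0.97, both arms of miR-223 at 0.56 and 0.54, miR-142a-3p at -1.90 and miR-142a-5p at -2.52. Median-of-ratios scaling moved the median to 0.12, with 31.1% of tested entries called by limma. Under it miR-155-5p stayed past the threshold (1.34, adjusted p = 0.0298), as did miR-342-3p (0.99, adjusted p = 0.0362). Neither arm of miR-223 passed there, the 3p arm at 0.63 (adjusted p = 0.191) and the 5p arm at 0.73 (adjusted p = 0.0608), and miR-142a-5p fell (-2.50, adjusted p = 0.0126). Under TMM scaling (31.7% of tested entries called) only miR-155-5p of the 4 rises passed (1.13, adjusted p = 0.0456, limma), and miR-142a-5p fell (-2.71, adjusted p = 0.0124, limma).

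With the library set as a term, 0 of 7 members and 0% of the tested entries passed in MI+CIH against sham by limma, with 0 members and 5.83% of the tested entries at an unadjusted p of 0.05 and 0 members by edgeR with the same term. The log2 difference was 0.76 for miR-223-3p (adjusted p = 0.687), 0.86 for miR-223-5p (adjusted p = 0.637), 0.40 for miR-342-3p (adjusted p = 0.729), -0.045 for miR-155-5p (adjusted p = 0.971) and -0.46 for miR-150-5p (adjusted p = 0.729). In this fit the step between sham and infarcted hearts rests on MI+CIH 1 and MI 2, the infarcted hearts of set A. Both arms of miR-223 were higher in MI+CIH 1 (17.5 and 4.94 RPM) than in any sham heart, whereas miR-155-5p (18.3 RPM), miR-342-3p (18.1 RPM) and miR-150-5p (54.0 RPM) lay inside the sham range.

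**Figure D3:**
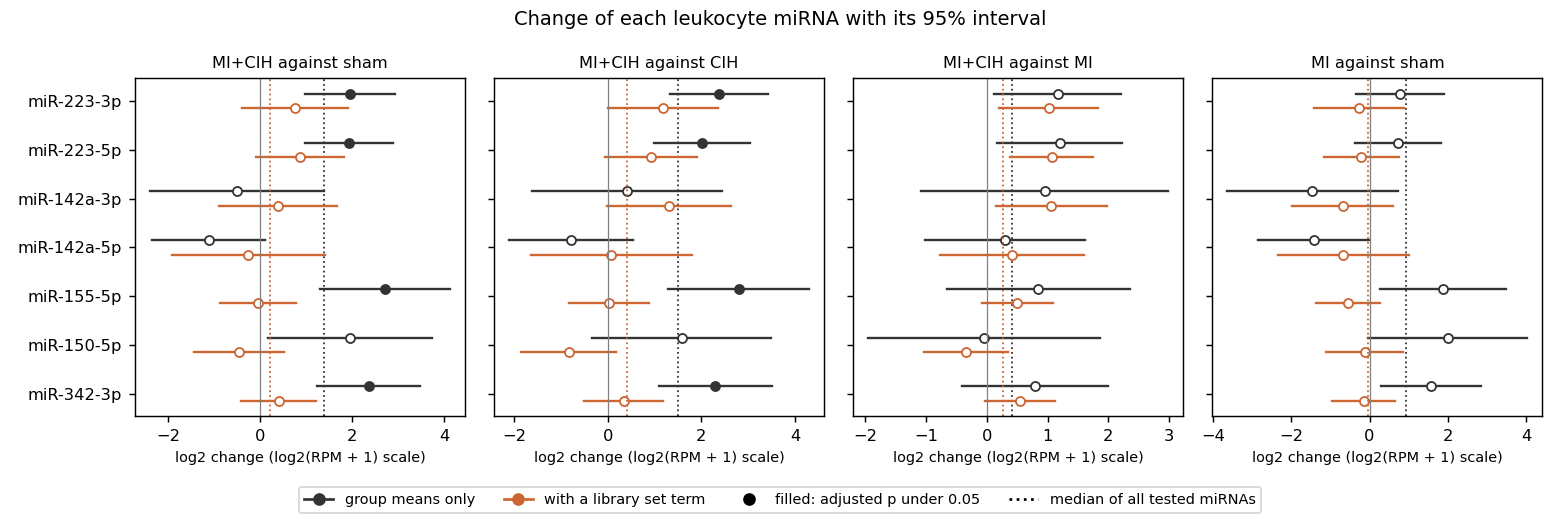
Points are log2 changes of each member on the log2(RPM + 1) scale with 95% intervals, for 4 comparisons; dark points are the fit of group means, orange points the fit with a library set term, filled points have an adjusted p under 0.05 and dotted lines mark the median of all tested miRNAs. The 4 filled points in MI+CIH against sham and the 4 in MI+CIH against CIH are all from the fit without the set term.

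MI+CIH against CIH asks what infarction did in CIH hearts, and gave the same 4 calls. With limma 4 of 7 members rose, while 54.7% of the tested entries rose. The log2 change was 2.79 for miR-155-5p (SE 0.73, adjusted p = 0.00434), 2.38 for miR-223-3p (SE 0.50, adjusted p = 0.00199), 2.30 for miR-342-3p (SE 0.58, adjusted p = 0.00357) and 2.004 for miR-223-5p (SE 0.49, adjusted p = 0.00337), all by limma. Both arms of miR-223 had no overlap between MI+CIH and CIH hearts, as did 27.8% of the tested entries. For the 5p arm, which passed the filter only through infarcted hearts, the rise and separation are no independent support. The median over all tested entries was 1.51. None of the 4 rises passed by limma under TMM (25% of tested entries called) or median-of-ratios scaling (26.9%), where the only member called was miR-142a-5p, which fell (-2.64, adjusted p = 0.0224, and -2.44, adjusted p = 0.0225). With the set term 0 of 7 members passed by limma, 1 of them (miR-223-3p) with an unadjusted p under 0.05, against 17.2% of the tested entries, and without the term edgeR called 0 (20.8% of tested entries called) and DESeq2 2, miR-155-5p and miR-223-3p (36.9%). The comparison shares its MI+CIH hearts with the one against sham.

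Infarction alone gave no call for the members by limma. In MI against sham, 0 of 7 members and 0% of the tested entries passed, 3 members (miR-155-5p, miR-342-3p and miR-142a-5p) and 28.1% of the tested entries had an unadjusted p under 0.05, edgeR called 0 members, and DESeq2 called miR-142a-5p, with 10.8% of tested entries called. The log2 difference was 1.87 for miR-155-5p (SE 0.78, adjusted p = 0.138), 1.57 for miR-342-3p (SE 0.62, adjusted p = 0.125), 1.99 for miR-150-5p (SE 0.98, adjusted p = 0.182) and -1.43 for miR-142a-5p (SE 0.68, adjusted p = 0.175), all by limma. Without MI 2, miR-155-5p (2.62, adjusted p = 0.0155) and miR-342-3p (2.07, adjusted p = 0.0181) passed by limma. The share of tested entries called in that fit is not given here. Without sham 1 and MI 2, miR-155-5p and miR-342-3p passed as well, while 31.7% of tested entries did. With the set term all 7 estimates lay below 0 and none passed by limma, while 170 of the 360 tested entries lay above 0.

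No member passed between CIH and sham hearts. In CIH against sham 0 of 7 members and 0% of the tested entries passed by limma, with 0 members and 0.278% of the tested entries at an unadjusted p of 0.05. edgeR and DESeq2 called 0 members, and DESeq2 called 0.278% of the tested entries. Every member had an adjusted p of 0.998 by limma. The largest relative gap in means was that of miR-142a-3p, at 7.12 ± 1.78 RPM in CIH hearts (n = 4) and 14.7 ± 4.65 RPM in sham hearts (n = 5). Its log2 difference was -0.92 (SE 1.05), in a fit whose spread is shared with the infarcted hearts of sets B and C. The SE of that difference was 0.46 with the set term (unadjusted p = 0.0607, adjusted p = 0.845, limma) and 0.29 in set A alone. With the set term 0 of 7 members passed by limma and 0 had an unadjusted p under 0.05, against 4.17% of the tested entries. The ranges of miR-142a-3p overlapped, since CIH 2 had 9.26 RPM and sham 5 had 8.79 RPM.

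Whether CIH acted differently in infarcted and uninfarcted hearts was tested as an interaction, (MI+CIH minus MI) minus (CIH minus sham). By limma 0 of 7 members and 0% of the tested entries passed, 1 member (miR-223-3p) and 3.89% of the tested entries had an unadjusted p under 0.05, and edgeR and DESeq2 called 0 members. The value was 1.60 for miR-223-3p (SE 0.74, unadjusted p = 0.0415, adjusted p = 0.880) and 1.87 for miR-142a-3p (SE 1.43, adjusted p = 0.880), both by limma. With the set term 0 of 7 members passed by limma, and 3 members and 18.3% of the tested entries had an unadjusted p under 0.05.

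The balance of myeloid to lymphoid members was described by read ratios within a heart, which do not depend on the scaling of a library and are ratios of reads, not of molecules. The log2 ratio of miR-223-3p to miR-150-5p had a median of -2.69 in MI+CIH hearts (-6.10 to -0.31), -4.53 in MI hearts (-6.48 to -2.53), -4.11 in CIH hearts (-4.92 to -3.73) and -3.57 in sham hearts (-4.16 to -1.71). All 4 groups overlapped. By library set the median was -5.10 in set B, -1.94 in set C and -3.88 in set A, so that the medians of the 2 sets of infarcted hearts lay on opposite sides of that of set A.

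The ratio to the other lymphoid member did not separate the groups either. The median log2 ratio of miR-223-3p to miR-342-3p was -1.48 in MI+CIH, -1.44 in MI, -1.46 in CIH and -1.20 in sham hearts. For miR-223-3p to miR-155-5p it was -2.51 in MI+CIH, -2.18 in MI, -1.71 in CIH and -1.66 in sham hearts, and set B, at -3.84 to -2.51, lay below all hearts of sets A and C. The log2 ratio of the 2 lymphoid members, miR-150-5p to miR-342-3p, was 2.20 to 3.81 in set B, 0.46 to 1.25 in set C and 1.58 to 3.55 in set A, so that set C lay below the other sets, which overlapped.

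**Figure D4:**
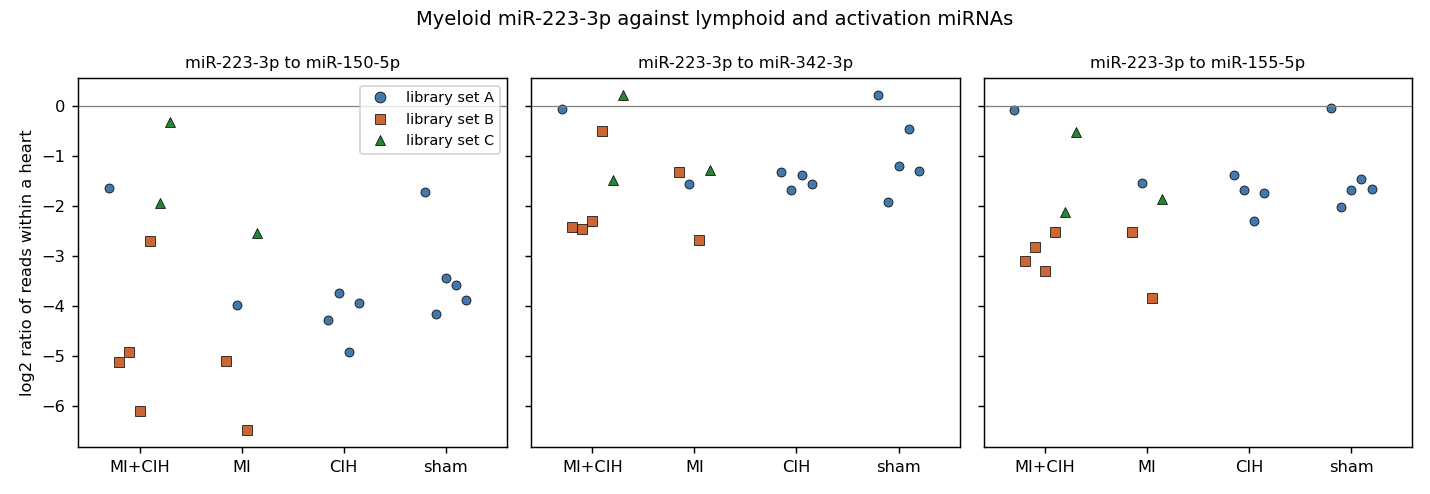
Each point is the log2 ratio of reads of miR-223-3p to another member in 1 heart, by group on the horizontal axis and by library set in colour and shape. The ratio to miR-150-5p spans -6.10 to -0.31 within MI+CIH hearts, and for that ratio set A overlaps both set B and set C.

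Other miRNAs of leukocytes and inflammation were counted in the same comparisons. Of 10 listed, 6 were tested, and 6 of 6 rose in MI+CIH against sham and in MI+CIH against CIH by limma, where 52.2% and 54.7% of all tested entries rose, with none called in the other comparisons or with the set term. Against sham 2 of the 6 rose under TMM scaling and 3 under median-of-ratios scaling, and against CIH 1 and 2 did, in an alternative chosen after seeing the data. The largest change against sham was that of miR-146a-5p, a feedback inhibitor of NF-kappaB signalling, with a log2 change of 3.83 (adjusted p = 0.00130, limma). Its level was 1132 ± 768 RPM in MI+CIH hearts and 61.7 ± 29.7 RPM in sham hearts, and it was highest in set C (1485 to 2356 RPM), where miR-150-5p was at the level of set A. miR-146b-5p, of the same seed family, rose by 2.80 on the log2 scale (adjusted p = 0.000490, limma).

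Marker miRNAs of other cells changed in the same comparison. By limma in MI+CIH against sham, 3 of 3 fibroblast miRNAs rose, 1 of 2 smooth muscle miRNAs rose, 1 of 4 red cell miRNAs rose and 1 fell, 1 of 2 endothelial miRNAs fell, and 3 of 4 heart muscle miRNAs fell while miR-133a-3p rose. Over all tested entries 52.2% rose and 4.44% fell. Under both TMM and median-of-ratios scaling 1 of 3 fibroblast miRNAs rose, and 1 smooth muscle, 2 red cell, 1 endothelial and 3 heart muscle miRNAs fell, with no rise in those 4 lists. The summed red cell miRNAs were 1422 to 15227 RPM in MI+CIH and 579 to 3984 RPM in sham hearts, and 5081 to 15227 RPM in set B against 579 to 3984 RPM in set A. The summed endothelial miRNAs were 24768 to 50262 RPM in set C and 5976 to 10970 RPM in set A. The part of these cells, and of the library set, in the values of the members was not tested.

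The other arms of the member hairpins were too scarce to test. miR-155-3p, miR-150-3p and miR-342-5p summed to 1.33 to 27.3 RPM in MI+CIH, 1.31 to 12.7 RPM in MI, 0.699 to 1.55 RPM in CIH and 0.456 to 0.877 RPM in sham hearts. miR-342-5p reached 19.98 RPM in 1 MI+CIH heart of set B and at most 0.351 RPM in sham hearts.

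The entries whose profiles over the 20 libraries were most like those of 5 members were sought among 341 candidates, by the root mean square difference of centred log2(RPM + 1). miR-103-3p (0.463), miR-146b-5p (0.482) and miR-98-5p (0.56) were nearest to miR-223-3p, for which the median candidate was at 1.12. miR-221-3p (0.462), let-7a-5p and miR-365-3p were nearest to miR-155-5p, and miR-28a-3p (0.449), miR-30c-2-3p and miR-208a-5p to miR-150-5p. miR-338-5p (0.39), miR-3065-3p and miR-669c-5p were nearest to miR-342-3p, and miR-29b-3p (0.643), miR-32-5p and miR-199b-5p to miR-142a-3p. After centring within each library set, miR-146b-5p was again among the 3 nearest to miR-223-3p (0.389), along with miR-210-5p and miR-425-5p. miR-29b-3p was again among the 3 nearest to miR-142a-3p (0.451), and the other 3 members had no neighbour in both lists.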

How the data were processed

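Per the labels' protocols, Trizol RNA from frozen hearts went into NEBNext small RNA libraries. The submitters' processing notes name Bowtie, DESeq 1.8.3 and mm10. Counting rules are not given in the sources used here. The deposited table calls its values TPM, but by the values they are RPM computed by the authors: each column sums to 1000000, and counted in units of 1 read 100% of values came out whole within 0.05 reads, which gave the reads back.

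The 360 entries reaching 5 RPM in 4 or more libraries were tested with limma 3.58.1 in R 4.3.3 on log2(RPM + 1), with 1 mean for each group and 20 libraries in the fit (residual degrees of freedom 16, prior 5.90, or 14 and 5.34 with the library set as a term), trend moderation, two-sided, and Benjamini-Hochberg adjustment over the tested entries of each contrast (threshold 0.05). Fold changes on this scale understate those of low entries. "Rose" and "fell" are used only of entries past the threshold. A count of 0 reads was given a limit of 3 reads, which is below the upper end of the exact Poisson interval. Intervals of reads cover counting error only.

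Alternatives were pseudocounts of 0.5 and 5 RPM, testing unfiltered entries or only those averaging 50 RPM, TMM and median-of-ratios scaling, only the groups compared, a replicate block, removal of repeated entries, sets alone, each library left out in turn, sham 1 and MI 2 left out, and count tests on recovered reads with DESeq2 1.42.0 and the quasi-likelihood method of edgeR 4.0.16. Library sets came from average-linkage clustering on 1 minus Pearson's r without the members. The fit was tested on simulated data with independent counts and no library sets, so that test cannot show how it performs with the sets found here. All members are named; of other lists, those past the threshold or the first few; and the 3 nearest profiles of 5 members. The members, lists, sets and alternatives were chosen with earlier results of these data known.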

Additional observations from a re-analysis of the deposited data

Results flagged for a closer look

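miR-142a-3p had 36.8 RPM in MI 4, far from the other MI hearts, which had 0 to 4.49 RPM. The gap to the nearest MI heart was larger than Dixon's critical value for 4 samples, 1 such result in 28 group tests, where chance gives about 1 in 20. MI 4 is the only MI heart of library set C, and the 2 MI+CIH hearts of that set had 51.3 and 96.0 RPM. The part of the library set in this value was not tested.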

How the results depend on the processing

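The number of members called changed as follows. In MI+CIH against sham (4 of 7, all higher) it was 2 under TMM (miR-155-5p higher and miR-142a-5p lower), 2 under a filter of a mean of 50 RPM (miR-155-5p and miR-342-3p), 1 with edgeR, and 0 in all 5 fits with a set term or in set A alone. In MI+CIH against CIH (4 of 7, all higher) it was 2 with DESeq2 and the 50 RPM filter, 1 under TMM and median-of-ratios scaling, which was a fall of miR-142a-5p with none of the 4 rises, and 0 with edgeR and in all 5 set fits. In MI against sham (0 of 7) it was 1 with DESeq2 and 2 without sham 1 and MI 2. In the interaction (0 of 7) it was 1 in set A alone (miR-142a-3p, 3.53, adjusted p = 0.0444, limma), where MI and MI+CIH are 1 heart each. The filter of 50 RPM also removes some members from testing. The shares of tested entries called under that filter and in set A alone are not given here.

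Leaving out each library in turn gave 4 to 6 calls in MI+CIH against sham, 4 to 4 against CIH, 0 to 2 in MI against sham, and 0 to 0 in MI+CIH against MI, CIH against sham and the interaction. With no library left out, 56.7% of tested entries were called in MI+CIH against sham and 56.9% against CIH by limma. The shares for each library left out are not given here. In MI+CIH against sham, miR-150-5p passed by limma without MI+CIH 1 (adjusted p = 0.0162), MI+CIH 6 (0.0260), MI+CIH 7 (0.0309), MI 2 (0.0497) or MI 3 (0.0483), over an adjusted p range of 0.0162 to 0.125, and miR-142a-5p fell without MI+CIH 1 (0.0351). The difference of miR-150-5p in MI+CIH against MI ranged from -0.69 to 0.60.

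Leave-one-out aside, the sign of the difference turned under at least 1 alternative for 7 of 7 members in MI against sham, 5 in MI+CIH against CIH, 4 each in MI+CIH against sham and the interaction, and 3 each in MI+CIH against MI and CIH against sham, and no turned value was past the threshold. In MI against sham, both arms of miR-223 (0.78 for 3p and 0.74 for 5p) were at -0.26 and -0.16 under TMM and -0.22 and -0.19 with edgeR. In MI+CIH against CIH, miR-150-5p (1.58) was at -0.29 under TMM and -1.36 in edgeR with the set term, and miR-142a-3p (0.42) at -0.97 under TMM. Other turned values of differences given in the report follow. In MI against sham, miR-155-5p, miR-150-5p and miR-342-3p were at -0.55, -0.12 and -0.15 with the set term, -0.46, -0.028 and -0.054 with median-of-ratios scaling added, and -0.54, -0.16 and -0.13 in edgeR with the set term. In limma with the set term and without sham 1 and MI 2, they were at -0.98, -0.64 and -0.59 and miR-142a-5p at 0.71. In set A alone miR-155-5p was at -0.37. In MI+CIH against sham, miR-142a-3p, miR-155-5p and miR-150-5p were at 0.38, -0.045 and -0.46 with the set term. They were at 0.10, -0.28 and -0.69 with median-of-ratios scaling added, and 0.19, -0.31 and -0.73 in edgeR with the set term. In limma with the set term and without sham 1 and MI 2, they were at 1.22, -0.39 and -0.89 (miR-142a-5p at 0.69). In set A alone they were at 1.15, -0.22 and -0.65 (miR-142a-5p at 0.61). With DESeq2 miR-142a-3p was at 0.047. In MI+CIH against CIH, miR-155-5p and miR-342-3p were at -0.47 and -0.15 with the set term and median-of-ratios scaling, -0.51 and -0.12 in edgeR with the set term, and miR-155-5p at -0.14 both with the set term without sham 1 and MI 2 and in set A alone. The cause was not tested.

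Of 25 same-numbered pairs of libraries, 10 correlated over 0.1 (-0.711 to 0.867). Pairs with different numbers were not compared, so these values cannot decide whether the replicate numbers pair the libraries. With the replicate block, 5 members passed in MI+CIH against sham, miR-150-5p among them (2.73, adjusted p = 0.0121, limma), and 5 against CIH. In MI+CIH against MI, miR-142a-3p was at -0.074 and miR-150-5p at 0.73. The share of tested entries called with the block is not given here. The MI+CIH hearts of set C, with 73.2 and 98.7 RPM of miR-150-5p, have replicate numbers that no other group has. The block takes up their values, so these hearts do not enter the differences with the block. The scarcest values, miR-142a-3p in set B and miR-223-5p in uninfarcted hearts, rest on 0 to 40 reads a heart, so small differences there were not detectable.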
